A study of Mus musculus with 12 samples.

Results

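Genes of the contractile and smooth muscle cytoskeleton, 10 in all, were followed across 4 stromal populations sorted from mouse bone marrow. They are Acta2, Tagln, Cnn1, Cnn2, Cnn3, Tpm1, Tpm2, Myl9, Myh11 and Des, chosen by name and matched to the Ensembl identifiers of the count tables. These 10 genes were among 49585 genes in the tables, and all 10 passed the filter on low values, which asked for at least 0.5 CPM (read counts scaled to the total of their library) in at least 1 library. The study compared mesenchymal stem cell (MSC) populations of the bone surface and of the marrow, each with 3 libraries made from 2000 sorted cells. All cells were CD45-Ter119-CD31-, which leaves out blood, red blood and endothelial cells, and came from wild-type male C57BL/6 mice aged 8 to 10 weeks at steady state. Itga8+ MSCs were Itga8+Alcam+Sca-1- cells, Itga8- Alcam+ bone-lining cells (BLCs) were Itga8-Alcam+Sca-1- cells that the labels call osteoblasts, and Sca-1+ MSCs were Alcam-Sca-1+ cells. These 3 populations were released by collagenase from flushed fragments of femora, tibiae and iliac bones, whereas the CD51+CD140a+ MSCs were released by Accumax from the flushed marrow of femora and tibiae. Population, tissue fraction and digestion therefore cannot be told apart in any comparison with CD51+CD140a+ MSCs.

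Smooth muscle contracts when myosin heads pull on actin filaments. Acta2 encodes the smooth muscle actin of the filament, tropomyosins (Tpm1, Tpm2) lie along it, and transgelin (Tagln) and the calponins (Cnn1, Cnn2, Cnn3) bind it. Myh11 encodes the heavy chain of smooth muscle myosin, Myl9 a regulatory light chain whose phosphorylation switches the motor on, and Des the intermediate filament protein desmin, which ties contractile units together in muscle. In the marrow, vascular smooth muscle cells and pericytes carry much of this set, and fibroblasts that pull on their matrix make Acta2, Tagln and Myl9 as well. The transcription factor SRF, with its partners of the myocardin family, drives many of these genes through a DNA element known as the CArG box.

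Gene counts summed to 17580677 to 31332475 per library, the CD51+CD140a+ libraries being the deepest, and a level of 3 counts, taken as the floor, lay between 0.0819 and 0.180 CPM. Transcripts of the sort markers followed the gates in part: Itga8 ranged from 35.2 to 199 CPM in Itga8+ MSCs and from 0.398 to 4.17 CPM in Itga8- Alcam+ BLCs, and Ly6a, which encodes Sca-1, from 611 to 659 CPM in Sca-1+ MSCs. CD51+CD140a+ MSCs held 53.1 to 82.9 CPM of Itga8, and Alcam was low in every library, at 1.29 to 5.81 CPM in the Alcam+ sorts. The transcripts behind the CD51+CD140a+ gate did not set that population apart from Sca-1+ MSCs, with Itgav (CD51) at 121 to 194.5 against 126 to 150.2 CPM and Pdgfra (CD140a) at 681 to 867 against 734 to 1019 CPM. Replicate 2 of the Itga8+ MSCs stood apart from the other libraries of its group. Its haematopoietic markers summed to 4997 CPM against 374 and 918 CPM, its erythroid markers to 1371 CPM against 121 and 108 CPM, its osteoblast markers to 696 CPM against 6960 and 7978 CPM, and its cartilage markers to 16120 CPM against 80150 and 126300 CPM. As the same library was also the highest of its group for Acta2, Tagln, Cnn1, Cnn2, Cnn3, Tpm1, Tpm2 and Myl9, the calls in Itga8+ MSCs that change without it are given below, with the fitted differences of Acta2 and Tagln and the counts of called genes without it. Itga8- replicate 3 departed from its group in the same directions. Its osteoblast markers summed to 36850 CPM against 84590 and 115100 CPM, and its cartilage markers to 15660 CPM against 46860 and 80050 CPM. Its haematopoietic markers were at 1518 CPM against 1067 and 1241 CPM. It was the highest of its group for Acta2, Tagln, Cnn1, Cnn2, Tpm1, Tpm2 and Myl9, but not for Cnn3. Nothing in the labels says that the 3 libraries of a population came from separate mice, and p-values then measure only the spread between these libraries.

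On the TPM scale, which divides counts by transcript length before scaling, the 10 genes together were most abundant in CD51+CD140a+ MSCs, with a sum of 2857 to 3269 TPM. The sum was 1889 to 2569 TPM in Itga8+ MSCs, 969 to 1264 TPM in Itga8- Alcam+ BLCs and 694 to 864 TPM in Sca-1+ MSCs, so that none of the 4 ranges overlapped on this scale. In CPM, the 7 genes of the 10 that encode actin, transgelin, calponins and tropomyosins summed to 1396 to 2723 CPM in Itga8+ MSCs. They reached 1645 to 1893 CPM in CD51+CD140a+ MSCs and 893 to 1554 CPM in Itga8- Alcam+ BLCs, both overlapping the Itga8+ range. In Sca-1+ MSCs they summed to 569 to 734 CPM. The make-up of the TPM sum differed from one population to the next. Cnn3 alone held 58.7% of it in Itga8+ MSCs, and its share of the Sca-1+ MSC sum was 64.1%. In Itga8- Alcam+ BLCs, Cnn2 with 36.1% and Cnn3 with 33.9% of the summed TPM stood side by side, and in CD51+CD140a+ MSCs Myl9 with 32.7% and Cnn2 with 29.8% led. Acta2 held 8.99% of the sum in Itga8+ MSCs, but 0.685% of that of CD51+CD140a+ MSCs. Of the genes most restricted to muscle, Myh11 and Cnn1 were low in all 4 populations, at means of 0.656 to 6.70 TPM and 0.0434 to 4.87 TPM. Des had means of 1.05 to 29.9 TPM. In CD51+CD140a+ MSCs, where it was highest, Des lay above Acta2 (20.7 TPM) and Tagln (19.0 TPM). In pooled cells, fewer cells that make a transcript and less of it per cell cannot be told apart.

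**Figure D1:**
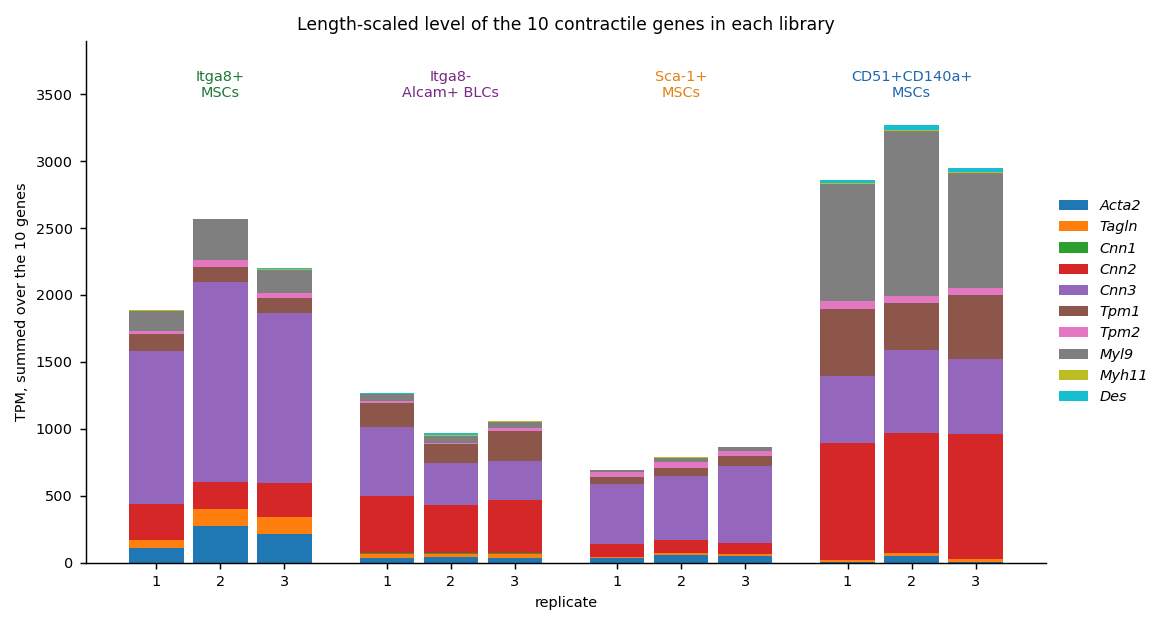
Stacked bars of the TPM (length-scaled level) of the 10 contractile genes in each of the 12 libraries, 3 per population, with 1 colour per gene. The bars reach 1889 to 2569 TPM in Itga8+ MSCs, mostly Cnn3, and 2857 to 3269 TPM in CD51+CD140a+ MSCs, mostly Myl9, Cnn2 and Cnn3.

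Promoter windows of RefSeq (GRCm38.p6, 250 bases before to 50 after the start) were found for 8 of the 10 genes, all but Tagln and Myh11. An exact CArG box, the element read by SRF, was searched on both strands and found in 2 of them, Cnn2 and Myl9, and in 1.63% of 32851 windows of the same length. These 2 are shown because they hold the exact box. The MCAT motif (CATTCC, both strands) was found in the windows of Acta2, 146 bases before the start, and Tpm1, 56 bases before it, and in 14.7% of all windows. The sequence upstream of Cnn2 (GRCm38.p6 chr10:79988350-79988583, plus strand) and of Myl9 (chr2:156775214-156775419, plus strand) follows, 5′ to 3′, ending where the annotated gene begins, with the CArG box in capitals, 56 bases before the RefSeq start of Cnn2 and 161 bases before that of Myl9.
Cnn2: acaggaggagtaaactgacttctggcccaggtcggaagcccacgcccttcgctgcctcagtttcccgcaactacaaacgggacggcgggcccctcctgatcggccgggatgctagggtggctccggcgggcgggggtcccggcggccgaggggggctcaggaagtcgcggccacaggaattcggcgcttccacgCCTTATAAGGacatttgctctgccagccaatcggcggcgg
Myl9: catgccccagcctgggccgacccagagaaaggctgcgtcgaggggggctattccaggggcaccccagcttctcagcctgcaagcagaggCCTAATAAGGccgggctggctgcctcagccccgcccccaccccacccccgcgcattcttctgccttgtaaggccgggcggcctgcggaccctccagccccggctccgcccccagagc
The match is a description of these letters, and no binding was measured here.

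Acta2 (ENSMUSG00000035783, GRCm38 chr19:34241090-34255590, minus strand), the smooth muscle actin, was highest in Itga8+ MSCs, at 63.5, 242 and 126 CPM in replicates 1, 2 and 3. Itga8- Alcam+ BLCs had 22.1, 28.6 and 29.7 CPM, Sca-1+ MSCs 18.3, 33.0 and 29.2 CPM, and CD51+CD140a+ MSCs 3.80, 28.1 and 2.93 CPM. Each Itga8+ library lay above every library of the other 3 populations, while those 3 overlapped one another. The fitted log2 difference was 3.63 ± 0.81 (SE, n = 3 libraries per population) against CD51+CD140a+ MSCs, at a false discovery rate (FDR) of 0.00590, and 2.42 ± 0.77 against Sca-1+ MSCs, at an FDR of 0.0531. Against Itga8- Alcam+ BLCs it was also 2.42 ± 0.77, but with an FDR of 0.159 it did not pass the threshold of 0.1, while DESeq2 (FDR 0.0229), library totals alone (FDR 0.0908) and the fit without a filter (FDR 0.0846) called Acta2 there. Without Itga8+ replicate 2 the difference was 1.84 against Itga8- Alcam+ BLCs (FDR 0.257) and 3.05 against CD51+CD140a+ MSCs (FDR 0.0134). Leaving out Itga8+ replicate 2 ended the call over Sca-1+ MSCs (log2 difference 1.80, FDR 0.145), as did leaving out any 1 of the 3 Sca-1+ libraries (FDR 0.122 to 0.160). One CD51+CD140a+ library, replicate 2, carried most of that population's Acta2. Without it, the excess of Itga8+ MSCs was 5.41 (FDR 0.000198), and Acta2 was called lower in CD51+CD140a+ MSCs than in Itga8- Alcam+ BLCs and in Sca-1+ MSCs too, each time with a log2 difference of 2.99 and FDRs of 0.00342 and 0.00421. A fit with the replicate number as a block also called Acta2 lower in CD51+CD140a+ MSCs than in these populations (log2 differences 1.80 and 1.72, FDR 0.0542 and 0.0926).

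Tagln (ENSMUSG00000032085, GRCm38 chr9:45929619-45936058, minus strand), the actin-binding protein transgelin, ranked the Itga8+ libraries first as well. It read 29.8, 101 and 67.3 CPM there, 18.0, 14.2 and 28.8 CPM in Itga8- Alcam+ BLCs, 4.70, 8.44 and 7.45 CPM in Sca-1+ MSCs, and 6.34, 12.2 and 10.0 CPM in CD51+CD140a+ MSCs. Itga8+ MSCs lay above the other 3 populations without overlap and Itga8- Alcam+ BLCs above the remaining pair, whose own ranges overlapped. In Itga8+ MSCs Tagln exceeded its level in Sca-1+ MSCs (log2 difference 3.27 ± 0.49, FDR 0.00119), CD51+CD140a+ MSCs (2.80 ± 0.48, FDR 0.00120) and Itga8- Alcam+ BLCs (1.70 ± 0.46, FDR 0.0887). Without Itga8+ replicate 2 the first pair of differences was 2.80 (FDR 0.00180) and 2.37 (FDR 0.00215). The last call was lost without Itga8+ replicate 2 or 3 and without Itga8- replicate 1 or 2, where the FDR was between 0.136 and 0.246, as well as with the replicate block (1.56, FDR 0.120) and in the fit of these 2 populations alone (FDR 0.305). Itga8- Alcam+ BLCs exceeded Sca-1+ MSCs by 1.56 ± 0.47 (FDR 0.0335) and CD51+CD140a+ MSCs by 1.09 ± 0.46 (FDR 0.0915). The former call was lost without Itga8- replicate 3 or Sca-1+ replicate 1 (FDR 0.111 and 0.121), and the latter without any library of the 2 populations other than Itga8- replicate 2 (FDR 0.103 to 0.285), with library totals alone (FDR 0.209) and without a filter (FDR 0.115).

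Counts of Tagln carry a further limit. Its exons lie opposite exons of Gm48529 and Pcsk7, and 41.7% of its 50-base words occur in no other gene. Gm48529 was counted at 0.936 to 1.33 times the counts of Tagln in every library, 1903 against 1950 in Itga8+ replicate 2 for example. Since the library kit does not mark strand, reads of these genes cannot be told apart. Pcsk7, the remaining partner, moved otherwise, with 11.1 to 42.6 CPM in Itga8+ MSCs and 34.4 to 46.6 CPM in Sca-1+ MSCs. The other 9 genes were better placed: 76.0% of the words of Cnn3 and 95.4% or more of those of the others were their own.

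The 3 calponins did not share an order. Cnn1 (ENSMUSG00000001349, GRCm38 chr9:22099216-22109630, plus strand), the calponin of smooth muscle, was low throughout and highest in the Alcam+ sorts. It read 1.93, 2.86 and 1.44 CPM (25 to 55 counts) in Itga8+ MSCs and 4.53, 2.46 and 7.37 CPM in Itga8- Alcam+ BLCs, ranges that overlapped. Sca-1+ MSCs held 3, 10 and 0 counts, and CD51+CD140a+ MSCs 3, 0 and 0 counts. The Cnn1 ratio to CD51+CD140a+ MSCs was therefore given from the summed counts, as 71.6 for Itga8+ MSCs (95% exact interval 23.9 to 352, counting error only) and 156 for Itga8- Alcam+ BLCs (53.0 to 763). Against Sca-1+ MSCs, Cnn1 was called higher in Itga8+ MSCs (log2 difference 3.19 ± 1.01, FDR 0.0534) and in Itga8- Alcam+ BLCs (4.39 ± 1.05, FDR 0.0120). The first of these calls was lost without Sca-1+ replicate 1 (FDR 0.153) or 3 (FDR 0.120) and in the fit of the 2 populations alone (FDR 0.104). Without Sca-1+ replicate 2, which held 10 of the 13 counts of its group, these differences were 4.63 (FDR 0.0469) and 5.83 (FDR 0.0154), and without Sca-1+ replicate 3 they were 2.59 and 3.79. Sca-1+ MSCs had 7.52 times the Cnn1 of CD51+CD140a+ MSCs by summed counts (2.07 to 41.2), a difference not called by edgeR, though it was by DESeq2 (FDR 0.0709) and without Sca-1+ replicate 3 (FDR 0.0676) or CD51+CD140a+ replicate 1 (FDR 0.0759), which leaves CD51+CD140a+ MSCs at 0 counts. The fitted log2 difference of 2.75 became 1.31 without Sca-1+ replicate 2 (FDR 0.686).

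Cnn2 (ENSMUSG00000004665, GRCm38 chr10:79988584-79996062, plus strand), a calponin also made outside muscle, whose upstream sequence is printed above, separated all 4 populations. CD51+CD140a+ MSCs had 495, 568 and 597 CPM, Itga8- Alcam+ BLCs 316, 269 and 431 CPM, Itga8+ MSCs 169, 197 and 164 CPM, and Sca-1+ MSCs 61.5, 64.4 and 56.1 CPM. No library crossed into the range of a neighbouring population. Cnn2 was called in 4 of the 6 comparisons, with log2 differences of -3.19 ± 0.27 for Sca-1+ against CD51+CD140a+ MSCs (FDR 6.78e-06), 2.48 ± 0.26 for Itga8- Alcam+ BLCs against Sca-1+ MSCs (FDR 8.35e-05), -1.65 ± 0.25 for Itga8+ against CD51+CD140a+ MSCs (FDR 0.000476) and 1.54 ± 0.25 for Itga8+ against Sca-1+ MSCs (FDR 0.00178). The remaining differences passed the FDR but not the fold change of 2, at -0.94 ± 0.25 for Itga8+ MSCs against Itga8- Alcam+ BLCs (FDR 0.0756) and -0.71 ± 0.24 for Itga8- Alcam+ BLCs against CD51+CD140a+ MSCs (FDR 0.0465). Without Itga8+ replicate 2 or without Itga8- replicate 2 the former passed it too, with FDRs of 0.0559 and 0.0612.

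Cnn3 (ENSMUSG00000053931, GRCm38 chr3:121426497-121458207, plus strand), the calponin named for its acidic tail and found in many cell types, was the most abundant of the 10 per length in Itga8+ MSCs, at 1304 ± 175 TPM (SD). It read 905, 1825 and 1032 CPM there and 289 to 485 CPM in the 9 libraries of the other populations, which overlapped one another. Itga8+ MSCs were called higher than Itga8- Alcam+ BLCs (log2 difference 1.72 ± 0.32, FDR 0.0134), Sca-1+ MSCs (1.61 ± 0.32, FDR 0.00612) and CD51+CD140a+ MSCs (1.56 ± 0.32, FDR 0.00368). No single library left out ended any of these 3 calls, but the first was lost in the fit of the 2 Alcam+ sorts alone (FDR 0.160). Without Itga8+ replicate 2 the difference from Itga8- Alcam+ BLCs was 1.37 (FDR 0.0162). Part of Cnn3 lies opposite Gm42928, which was counted at 0.171 to 0.219 times Cnn3 in every library.

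The tropomyosins differed from each other too. Tpm1 (ENSMUSG00000032366, GRCm38 chr9:67022590-67049406, minus strand) followed the order of Cnn2, at 591 to 803 CPM in CD51+CD140a+ MSCs, 279 to 643 CPM in Itga8- Alcam+ BLCs, 193 to 293 CPM in Itga8+ MSCs and 101 to 128 CPM in Sca-1+ MSCs. Neighbours in this order overlapped except Itga8+ and Sca-1+ MSCs. It was called lower in Sca-1+ MSCs than in CD51+CD140a+ MSCs (log2 difference -2.68 ± 0.35, FDR 0.000174), Itga8- Alcam+ BLCs (1.92 ± 0.34 for the latter minus Sca-1+, FDR 0.00214) and Itga8+ MSCs (1.05 ± 0.33, FDR 0.0510). Itga8+ MSCs were lower than CD51+CD140a+ MSCs by -1.63 ± 0.33 (FDR 0.00353). The call of Itga8+ over Sca-1+ MSCs was lost without Itga8+ replicate 2 (log2 difference 0.82, FDR 0.119) and without any 1 of the Sca-1+ libraries (FDR 0.102 to 0.153). Without Itga8- replicate 3, its highest library, Tpm1 was also called lower in Itga8- Alcam+ BLCs than in CD51+CD140a+ MSCs (-1.19, FDR 0.0142).

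Tpm2 (ENSMUSG00000028464, GRCm38 chr4:43514711-43523765, minus strand), the other tropomyosin, was called in a single comparison. It ranged from 19.4 to 61.5 CPM in Itga8+ MSCs, 10.7 to 25.5 CPM in Itga8- Alcam+ BLCs, 25.4 to 31.9 CPM in Sca-1+ MSCs and 36.8 to 41.2 CPM in CD51+CD140a+ MSCs. By mean level the order was CD51+CD140a+ MSCs, Itga8+ MSCs, Sca-1+ MSCs and Itga8- Alcam+ BLCs, and neighbours in it overlapped, while every CD51+CD140a+ library lay above those of Sca-1+ MSCs and Itga8- Alcam+ BLCs. The difference between Itga8- Alcam+ BLCs and CD51+CD140a+ MSCs was called, at -1.27 ± 0.43 (FDR 0.0444), and it was lost without Itga8- replicate 1 (FDR 0.129) or 2 (FDR 0.103). Without Itga8- replicate 3 Tpm2 was also called lower in Itga8- Alcam+ BLCs than in Sca-1+ MSCs, at -1.34 (FDR 0.0578), as it was with library totals alone (-1.08).

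Myl9 (ENSMUSG00000067818, GRCm38 chr2:156775420-156781658, plus strand), the regulatory light chain, separated all 4 populations. Its upstream sequence is printed above. CD51+CD140a+ MSCs had 233, 369 and 261 CPM, Itga8+ MSCs 45.7, 144 and 55.3 CPM, Itga8- Alcam+ BLCs 19.7, 18.5 and 25.9 CPM, and Sca-1+ MSCs 5.42, 10.7 and 9.28 CPM. No 2 ranges overlapped, and Myl9 was the only gene of the 10 called in all 6 comparisons. The log2 difference from CD51+CD140a+ MSCs was -5.09 ± 0.51 for Sca-1+ MSCs (FDR 2.89e-05), -3.75 ± 0.48 for Itga8- Alcam+ BLCs (FDR 0.000132) and -1.82 ± 0.44 for Itga8+ MSCs (FDR 0.00914). Itga8+ MSCs exceeded Sca-1+ MSCs by 3.27 ± 0.47 (FDR 0.000837) and Itga8- Alcam+ BLCs by 1.93 ± 0.44 (FDR 0.0406). The latter call held without Itga8+ replicate 2 (1.26, FDR 0.0558) and was lost without Itga8- replicate 1 (FDR 0.126) or 2 (FDR 0.118) and in the fit of these 2 populations alone (FDR 0.197). Without Itga8+ replicate 2, its highest library, the difference was 2.56 from Sca-1+ MSCs (FDR 0.000428) and -2.48 from CD51+CD140a+ MSCs (FDR 0.000314). Itga8- Alcam+ BLCs exceeded Sca-1+ MSCs by 1.34 ± 0.44 (FDR 0.0481), a call lost without Itga8- replicate 3 or Sca-1+ replicate 1 or 3 (FDR 0.108 to 0.160).

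Myh11 (ENSMUSG00000018830, GRCm38 chr16:14194535-14291372, minus strand), the heavy chain that defines mature smooth muscle, was scarce and uneven between libraries of 1 population. It read 11.0, 20.4 and 6.73 CPM in CD51+CD140a+ MSCs, 5.64, 0.935 and 2.95 CPM in Itga8+ MSCs, and 2.14, 9.96 and 0.539 CPM in Itga8- Alcam+ BLCs. Its level in Sca-1+ MSCs was 0, 4.02 and 0 CPM, which is 79 counts in replicate 2 and none in the other libraries. With all 12 libraries and no block, Myh11 was called in none of the 6 comparisons by edgeR or DESeq2, and had an unadjusted p under 0.05 in 0 and 1 of them, with edgeR log2 differences between -3.24 ± 1.49 and 1.66 ± 1.43. Separate edgeR fits of 2 populations called Myh11 lower than in CD51+CD140a+ MSCs in Itga8+ MSCs (FDR 0.0838) and in Sca-1+ MSCs (FDR 0.0767), and a fit with the replicate number as a block called the latter too (FDR 0.0765). Without Sca-1+ replicate 2, whose removal leaves that population at 0 counts, Myh11 was called lower in Sca-1+ MSCs than in each of the other populations (FDR 0.00715 to 0.0322), comparisons with a group at 0 counts for which no fold is given.

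Des (ENSMUSG00000026208, GRCm38 chr1:75360329-75368579, plus strand), desmin, was highest in CD51+CD140a+ MSCs, at 19.6, 35.1 and 30.1 CPM. Itga8- Alcam+ BLCs had 3.09, 19.8 and 4.68 CPM, Itga8+ MSCs 3.76, 2.08 and 12.5 CPM, and Sca-1+ MSCs 0.830, 1.63 and 0.703 CPM. The Sca-1+ libraries lay below all others, and 1 library of each Alcam+ sort, Itga8- replicate 2 and Itga8+ replicate 3, lay well above its partners. Des was called lower in Sca-1+ MSCs than in CD51+CD140a+ MSCs (-4.74 ± 0.87, FDR 0.00217), than in Itga8- Alcam+ BLCs (3.12 ± 0.82 for the latter minus Sca-1+, FDR 0.0186) and than in Itga8+ MSCs (2.53 ± 0.80, FDR 0.0530), and lower in Itga8+ than in CD51+CD140a+ MSCs (-2.21 ± 0.76, FDR 0.0476). The call of Itga8+ over Sca-1+ MSCs was lost without Itga8+ replicate 3 (1.44, FDR 0.163) or Sca-1+ replicate 1 or 3 (FDR 0.152 and 0.161), and that against CD51+CD140a+ MSCs without Itga8+ replicate 1 or 2 or CD51+CD140a+ replicate 2 (FDR 0.109 to 0.129). Without Itga8+ replicate 3 the latter was -3.27 (FDR 0.00993), and without Itga8- replicate 2 the excess of Itga8- Alcam+ BLCs over Sca-1+ MSCs was 1.83 (FDR 0.0752). Between Itga8- Alcam+ BLCs and CD51+CD140a+ MSCs Des differed by -1.62 ± 0.75 and was not called (FDR 0.122), but was called by DESeq2 (FDR 0.0760), with library totals alone (FDR 0.0409), in the fit of these populations alone (FDR 0.0870), with the replicate block (FDR 0.0954) and without Itga8- replicate 2 (-2.87, FDR 0.0138).

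**Figure D2:**
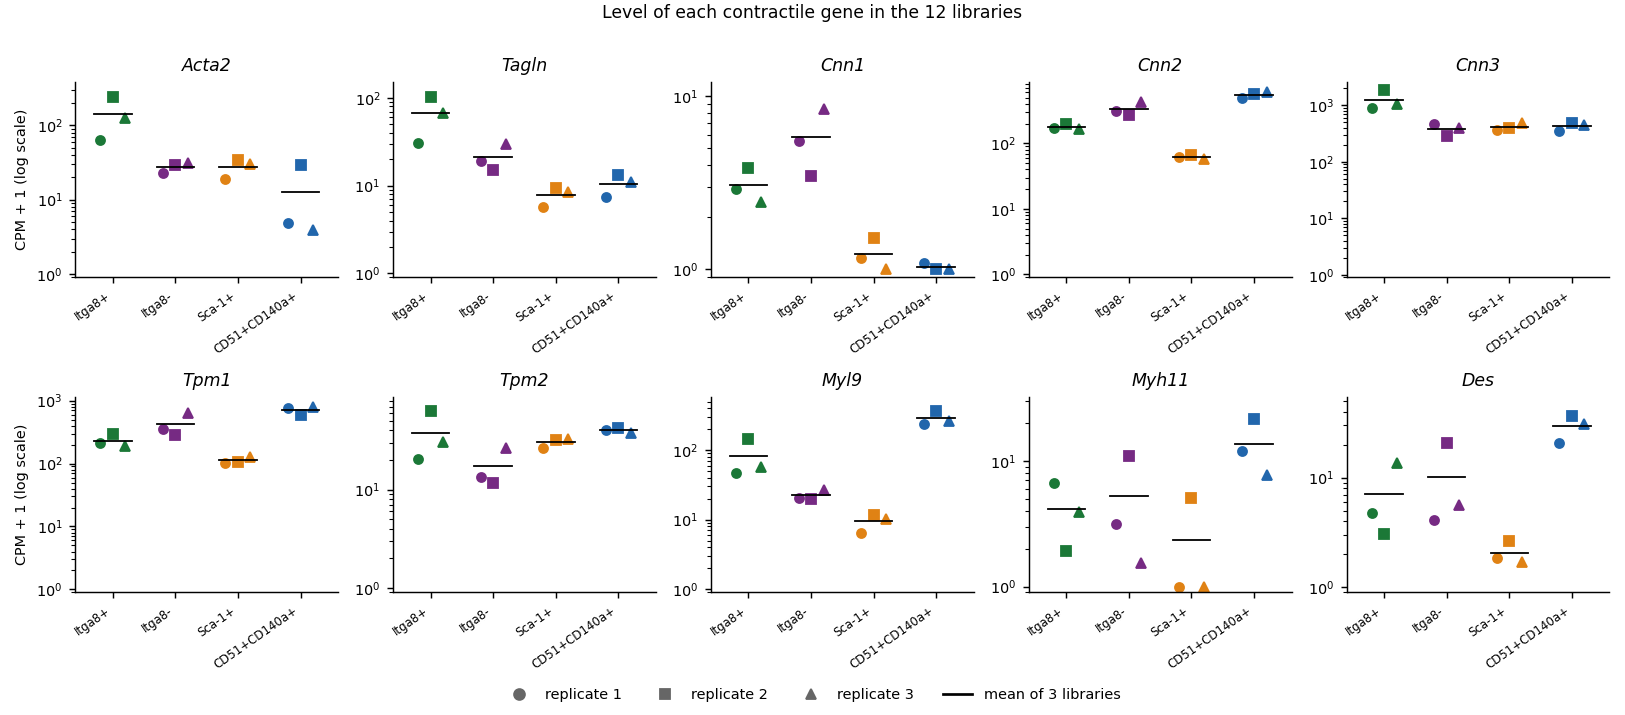
CPM + 1 on a log axis for each of the 10 genes in the 12 libraries, with 1 symbol per replicate number and a line at the mean of 3 libraries. Acta2, Tagln and Cnn3 are highest in Itga8+ MSCs (green), whereas Cnn2, Tpm1, Myl9, Myh11 and Des are highest in CD51+CD140a+ MSCs (blue).

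Read comparison by comparison, the set did not move as 1 block. Against Sca-1+ MSCs, Itga8+ MSCs had 8 of the 10 genes called higher and none lower, with Tpm2 and Myh11 not called, where 12.9% of the 18648 genes tested were called higher, 8.89% lower and 21.7% in either direction. Libraries did not overlap for 8 of the 10, as for 37.6% of all genes. The median log2 difference over the 10 was 2.02, against 0.16 over all genes. The count of 8 became 6 without Itga8+ replicate 2, and 4 without Sca-1+ replicate 1 or 3. Itga8- Alcam+ BLCs likewise had 6 of the 10 higher than Sca-1+ MSCs and none lower (Tagln, Cnn1, Cnn2, Tpm1, Myl9 and Des), where 14.5% of all genes were called higher, 11.9% lower and 26.4% in either direction. Libraries did not overlap for those 6, as for 45.7% of all genes, and the median over the 10 was 1.61 against 0.12. That count became 4 without Sca-1+ replicate 1, and library totals alone called 6 higher and 1, Tpm2, lower. Skeletal muscle fibre markers, in the Itga8- sort mostly Tnni2, moved with both differences, as described further on.

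Against CD51+CD140a+ MSCs the set split. Itga8+ MSCs had 4 genes called higher (Acta2, Tagln, Cnn1 and Cnn3) and 4 called lower (Cnn2, Tpm1, Myl9 and Des), where 21.2% of all genes were called higher, 14.3% lower and 35.6% in either direction. Without Itga8+ replicate 2, 4 were called higher and 3 lower. Libraries did not overlap for 9 of the 10, as for 44.4% of all genes. The median over the 10 was -0.86, and 0.18 over all genes. Itga8- Alcam+ BLCs had 2 called higher (Tagln and Cnn1) and 2 lower (Tpm2 and Myl9) where 20.4% of all genes were called higher, 14.9% lower and 35.3% in either direction, a share of the 10 close to that background. Libraries did not overlap for 5 of the 10, as for 49.8% of all genes. The count fell to 2, Cnn1 higher and Myl9 lower, without Itga8- replicate 1. Scaling by library totals alone, which moves the median over all genes in this comparison from 0.09 to -0.24, turned the split into 1 higher and 5 lower. Sca-1+ MSCs had none higher and 4 lower (Cnn2, Tpm1, Myl9 and Des) where 11.2% of all genes were called higher, 9.30% lower and 20.5% in either direction. Libraries did not overlap for 6 of the 10, as for 45.9% of all genes, and the median over the 10 was -1.57, against -0.0025 over all genes. DESeq2 called 1 of the 10 higher there. The edgeR fit of these 2 populations alone, where Cnn1 did not pass the filter, called 5 of 9 lower, with a median of -2.69 over the 9.

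Between the 2 Alcam+ sorts, 3 of the 10 genes were called higher in Itga8+ MSCs (Tagln, Cnn3 and Myl9) and none lower, where 1.66% of all genes were called higher, 2.16% lower and 3.82% in either direction. Acta2 lay higher and Cnn2 lower in every Itga8+ library without being called, so that 5 of the 10, 4 above and 1 below, had libraries that did not overlap, as had 14.2% of all genes. The median over the 10 was 0.39, against 0.08 over all genes, and it became 0.16 without Itga8- replicate 1 and 1.10 without Itga8- replicate 2. An edgeR fit of these 2 populations alone called none of the 10, with an unadjusted p under 0.05 for 5 of them, whereas DESeq2 on all 12 libraries called 4. Without Itga8- replicate 1 Cnn3 alone was called, and without Itga8+ replicate 2 Cnn3 and Myl9 were called higher and Cnn2 lower. Scaling by library totals alone moved the median over all genes from 0.08 to 0.34 and the split of all calls from 310 higher and 402 lower to 495 and 313, with 4 of the 10 then called higher and none lower.

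**Figure D3:**
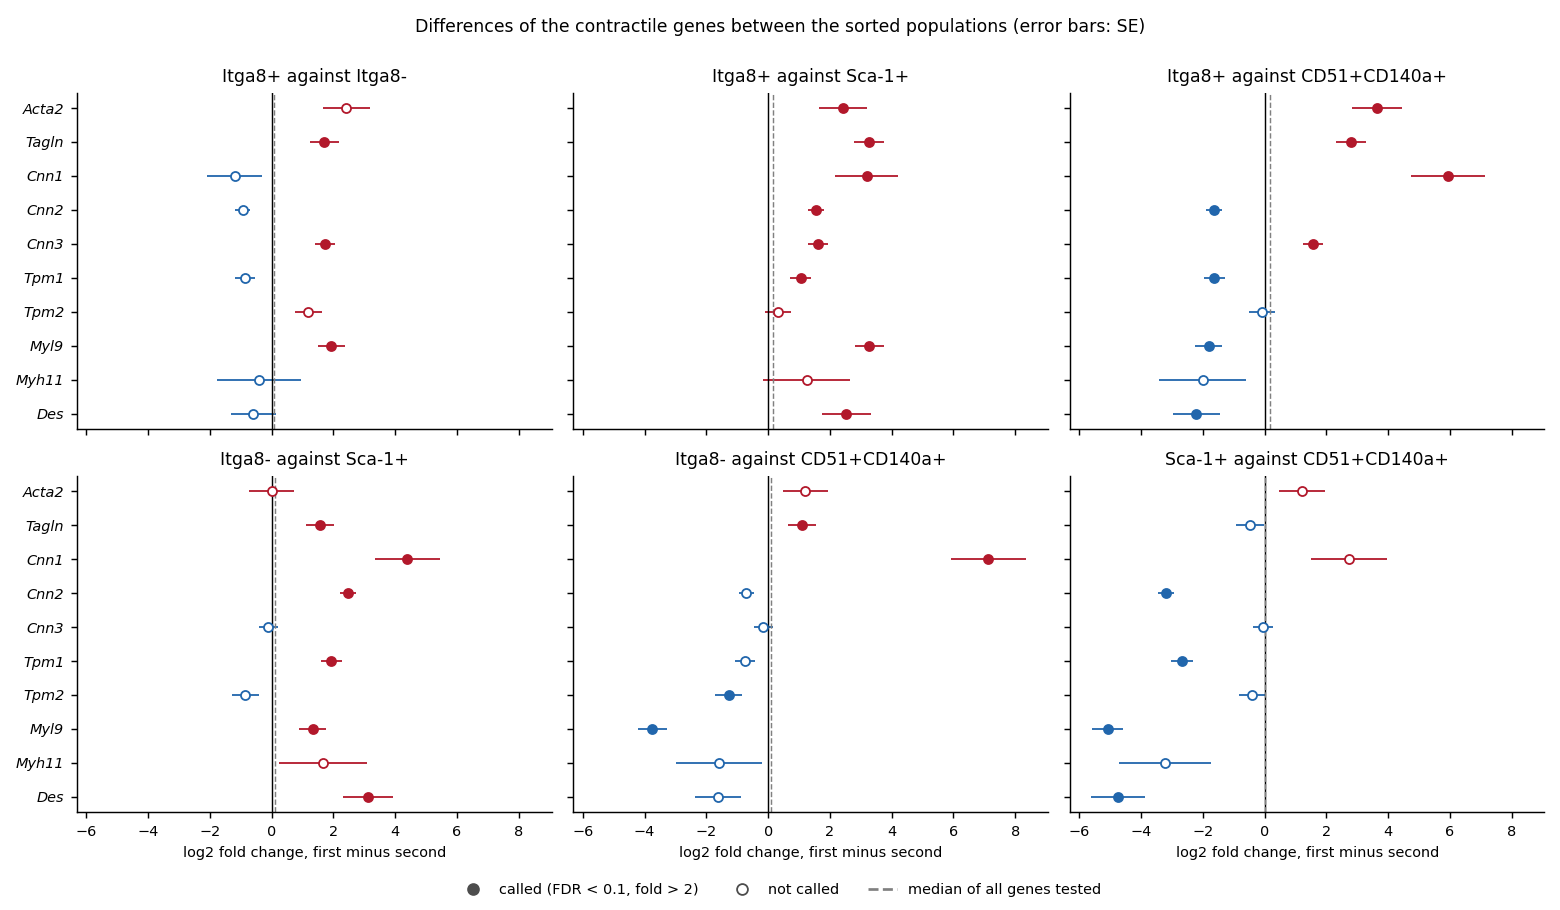
Fitted log2 difference of each of the 10 genes in the 6 comparisons, first population minus second, with SE as error bars, filled where called (FDR under 0.1 and more than 2-fold), and a dashed line at the median of all genes tested. Points lie on the right for 8 called genes in Itga8+ against Sca-1+ MSCs and on both sides in Itga8+ against CD51+CD140a+ MSCs; Cnn1 against CD51+CD140a+ MSCs rests on 3 counts in that population.

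Marker lists of other cell types moved with some of these differences. A list of 14 markers of pericytes and vascular smooth muscle summed to 3223 to 4126 CPM in CD51+CD140a+ MSCs, most of it Pdgfrb at a mean of 2146 CPM, against 135 to 884 CPM in Itga8+ MSCs, 238 to 733 CPM in Itga8- Alcam+ BLCs and 653 to 881 CPM in Sca-1+ MSCs. Of the 14, 6 or 7 were called higher in CD51+CD140a+ MSCs in each comparison, where 14.3%, 14.9% and 9.30% of all genes were for Itga8+ MSCs, Itga8- Alcam+ BLCs and Sca-1+ MSCs, and 2 to 4 were called lower, where 21.2%, 20.4% and 11.2% of all genes were, among them Cspg4, at 3.38 to 5.12 CPM there and 127.9 to 255.8 CPM in Sca-1+ MSCs. Within the Alcam+ sorts the list was highest in Itga8+ replicate 3 (884 CPM) and Itga8- replicate 2 (733 CPM), the libraries with the most Des. A list of 7 markers of Lepr+ stromal cells, led by Cxcl12, was at 47480 to 65690 CPM in CD51+CD140a+ MSCs and 294.5 to 825 CPM elsewhere. The part of either list in the differences of Myl9, Cnn2, Tpm1 and Des was not tested. A list of 7 tendon markers, led by Fmod, took the highest values in Itga8+ MSCs, at 12890 to 23560 CPM, against 3790 to 6410 CPM in Itga8- Alcam+ BLCs, 7060 to 9934 CPM in Sca-1+ MSCs and 84.6 to 116 CPM in CD51+CD140a+ MSCs. Itga8+ MSCs exceeded Itga8- Alcam+ BLCs by the test for 5 of the 7, against 1.66% of all genes, and their part in the differences of Acta2, Tagln and Cnn3 was not tested.

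Cartilage and osteoblast markers also moved with differences of the Alcam+ sorts. Cartilage markers, 7 genes, summed to 16120 to 126300 CPM in Itga8+ MSCs and 15660 to 80050 CPM in Itga8- Alcam+ BLCs, both led by Col2a1, against 9245 to 9872 CPM in Sca-1+ MSCs and 574 to 1460 CPM in CD51+CD140a+ MSCs. In each Alcam+ sort 6 of the 7 exceeded Sca-1+ MSCs by the test and 7 of 7 CD51+CD140a+ MSCs, where 12.9% to 21.2% of all genes did, and log2 differences between the Alcam+ sorts ran from -0.58 (Sox9) to 0.75 (Col2a1). Osteoblast markers, 9 genes led by Col1a1 in the bone fractions, summed to 36850 to 115100 CPM in Itga8- Alcam+ BLCs, 15630 to 19480 CPM in Sca-1+ MSCs, 8254 to 17460 CPM in CD51+CD140a+ MSCs and 696 to 7978 CPM in Itga8+ MSCs. All 9 were called lower in the Itga8+ than in the Itga8- sort, where 2.16% of all genes were. Against Sca-1+ MSCs, 5 were called higher and 1 lower in the Itga8+ sort and 7 higher in the Itga8- sort, where 12.9%, 8.89% and 14.5% of all genes were. Endothelial markers, 7 genes, were at 78.7 to 113 CPM in Sca-1+ MSCs, mostly Tek, and 11.4 to 40.2 CPM in the other populations. Erythroid markers, 5 genes, were at 108 to 382 CPM in the libraries other than Itga8+ replicate 2.

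A list of 13 markers of skeletal muscle fibres summed to 28.4 to 78.5 CPM in Itga8+ MSCs and 41.9 to 110 CPM in Itga8- Alcam+ BLCs, but to 2.58 to 4.31 CPM in Sca-1+ MSCs and 6.25 to 9.83 CPM in CD51+CD140a+ MSCs. Acta1 led the list in Itga8+ MSCs at a mean of 15.8 CPM, whereas in Itga8- Alcam+ BLCs Tnni2 made up most of the sum, at a mean of 54.7 CPM, with Acta1 at a median of 0.839 CPM. Of the 13, 10 were tested, and against Sca-1+ MSCs 6 were called higher in the Itga8+ and 3 in the Itga8- sort, where 12.9% and 14.5% of all genes were. Against CD51+CD140a+ MSCs these counts were 7 and 5, where 21.2% and 20.4% of all genes were called higher. A list of 8 satellite cell markers summed to 352 to 846 CPM in Itga8+ MSCs, mostly Chodl (mean 488.7 CPM), to 139 to 263 CPM in Itga8- Alcam+ BLCs, mostly Cdh15 (114.9 CPM), to 81.2 to 137 CPM in Sca-1+ MSCs and to 3428 to 4547 CPM in CD51+CD140a+ MSCs, the last pair led by Vcam1. Pax7, the defining marker of these cells, was at the floor in all 4 populations, and Myod1 reached 4.12 CPM in an Itga8- library. A list of 9 haematopoietic markers summed to 374 to 4997 CPM in Itga8+ MSCs, 1067 to 1518 CPM in Itga8- Alcam+ BLCs, 172 to 607 CPM in Sca-1+ MSCs and 61.1 to 137 CPM in CD51+CD140a+ MSCs, led by Lyz2, with Cd3e at the floor in each. The part of any of the lists above in the results was not tested. Itga8+ replicate 2 was the highest of its group for the fibre, haematopoietic and erythroid lists and the lowest for the cartilage and osteoblast lists. Without it, Tagln lost its call against Itga8- Alcam+ BLCs (FDR 0.167), Acta2 and Tpm1 theirs against Sca-1+ MSCs (FDR 0.145 and 0.119) and Des its call against CD51+CD140a+ MSCs (FDR 0.118), whereas the calls of Cnn3 and Myl9 in Itga8+ MSCs held.

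**Figure D4:**
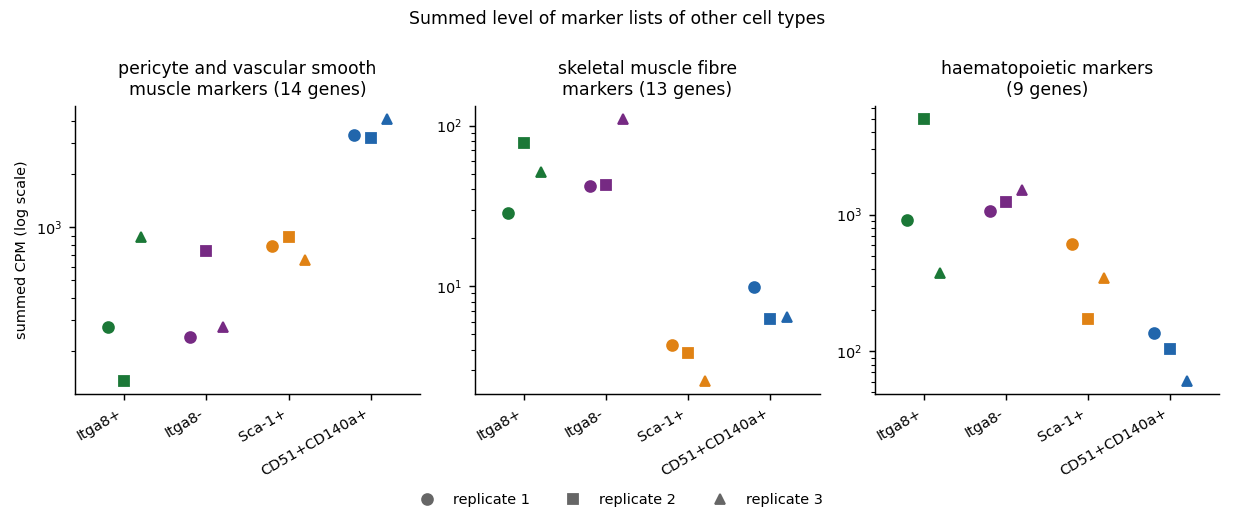
Summed CPM on a log axis of 3 marker lists in each library, with 1 symbol per replicate number. Pericyte and vascular smooth muscle markers are at 3223 to 4126 CPM in CD51+CD140a+ MSCs, skeletal fibre markers are highest in the 2 Alcam+ sorts, and Itga8+ replicate 2 stands out for haematopoietic markers at 4997 CPM.

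Other genes of the smooth muscle contractile apparatus moved in both directions. Of 22 listed, 21 were tested. In Itga8+ MSCs 1 was called higher and 1 lower than in Itga8- Alcam+ BLCs, 2 higher and 7 lower than in Sca-1+ MSCs, and 3 higher and 7 lower than in CD51+CD140a+ MSCs. Over all genes the shares called higher and lower were 1.66% and 2.16%, 12.9% and 8.89%, and 21.2% and 14.3% in these comparisons. Mylk, the kinase that phosphorylates Myl9, was at 144 to 215 CPM in CD51+CD140a+ MSCs and 2.28 to 7.92 CPM in the 9 other libraries, with a log2 difference of -5.41 ± 0.51 for Itga8+ MSCs (FDR 1.86e-05). Synpo2, an actin-bundling protein, was lower in Itga8+ than in CD51+CD140a+ MSCs by -3.86 ± 0.58 (FDR 0.000433). Cald1, caldesmon, which binds actin and tropomyosin, was the gene called higher in Itga8+ MSCs than in Itga8- Alcam+ BLCs, at 70.4, 257 and 158 CPM against 38.9, 43.1 and 60.2 CPM (log2 difference 1.77 ± 0.39, FDR 0.0351). It was higher still in CD51+CD140a+ MSCs, at 294 to 350 CPM. Aoc3, an amine oxidase of smooth muscle, and the muscle integrin Itga7 were lower in Itga8+ than in Sca-1+ MSCs by -4.80 ± 0.74 (FDR 0.00129) and -5.11 ± 1.15 (FDR 0.0115). Smtn, smoothelin, went the other way, at 71.9 to 423 CPM in Itga8+ and 87.3 to 130 CPM in Sca-1+ MSCs, ranges that overlapped (1.31 ± 0.50, FDR 0.0982). Dmd, dystrophin, was higher in Sca-1+ than in CD51+CD140a+ MSCs by 5.33 ± 0.44 (FDR 6.81e-06), and the channel subunit Kcnmb1 was at the floor in all 4 populations.

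Non-muscle actomyosin genes were also counted. None of the 24 genes listed was called between the 2 Alcam+ sorts by edgeR, where 3.82% of all genes were, with 4 at an unadjusted p under 0.05 and 1 called by DESeq2. In Itga8+ MSCs 1 gene was called (Pdlim7, lower) against Sca-1+ MSCs, where 21.7% of all genes were, and 6 were called higher and 4 lower against CD51+CD140a+ MSCs, where 35.6% of all genes were called. Myh9, a non-muscle myosin heavy chain, was at 4.93 to 62.9 CPM in Itga8+ and 128 to 206 CPM in CD51+CD140a+ MSCs (-2.70 ± 0.83, FDR 0.0293), and Myh10, its paralogue, was higher in Itga8+ MSCs by 1.94 ± 0.66 (FDR 0.0444). Actg1, cytoplasmic gamma actin, was highest in Itga8- Alcam+ BLCs, at 270 to 464 CPM against 66.5 to 85.4 CPM in CD51+CD140a+ MSCs (2.18 ± 0.29, FDR 0.000165). Actb, the other cytoplasmic actin, was the most abundant gene of the list in every population.

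Of 10 regulators listed, 9 were tested. Srf was higher in Itga8+ MSCs, at 45.9, 10.1 and 36.5 CPM in replicates 1, 2 and 3, than in Sca-1+ MSCs, at 7.31 to 9.97 CPM (1.82 ± 0.52, FDR 0.0348). Itga8+ replicate 2, the lowest of its group for Srf, was the highest for Acta2, Tagln, Cnn2, Cnn3 and Myl9. Srf was also higher in Itga8- Alcam+ BLCs than in Sca-1+ MSCs by 2.36 ± 0.53 (FDR 0.00864). The SRF coactivator gene Mrtfb was lower in Itga8+ than in Sca-1+ MSCs (-1.54 ± 0.44, FDR 0.0345). Fhl2, a partner of SRF, took the order of Cnn2, at 220 to 312 CPM in CD51+CD140a+ MSCs, 90.3 to 199 CPM in Itga8- Alcam+ BLCs, 56.5 to 80.9 CPM in Itga8+ MSCs and 16.5 to 24.9 CPM in Sca-1+ MSCs. Klf4, a factor known to hold down smooth muscle genes, was higher in Itga8+ than in CD51+CD140a+ MSCs by 1.82 ± 0.38 (FDR 0.00405). Myocd, which encodes myocardin, had 0 counts in the 3 Itga8+ libraries and at most 28 counts in any library.

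**Figure D5:**
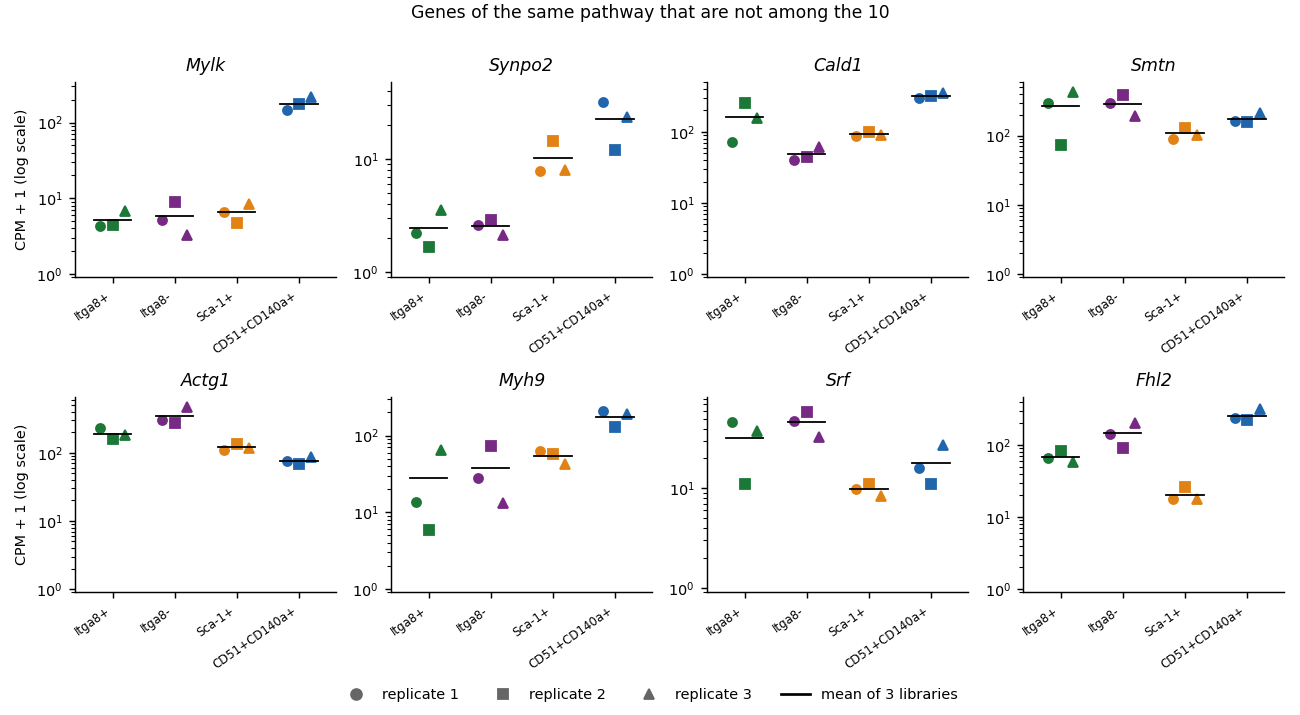
CPM + 1 on a log axis for 8 genes of the contractile pathway outside the 10, in the 12 libraries, with 1 symbol per replicate number and a line at the mean of 3 libraries. Mylk is at 144 to 215 CPM in CD51+CD140a+ MSCs and under 8 CPM elsewhere, and Fhl2 falls from CD51+CD140a+ MSCs over Itga8- Alcam+ BLCs and Itga8+ MSCs to Sca-1+ MSCs.

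Likeness of pattern was measured as the root mean square difference of log2(CPM + 1), each gene centred on its mean over the 12 libraries, against 10553 genes with at least 10 CPM on average in a population. It is a description over 12 libraries that share their depth and their cells. Within the set, Cnn2 and Tpm1 were closest, at 0.31, followed by Tagln and Cnn3 at 0.73. The genes most like Acta2 were Rflnb (0.67), Rasl10a (0.72), Prss12 (0.76), Cd38 (0.79) and Hopxos (0.79). Rflnb had means of 171 CPM in Itga8+ MSCs, 42.4 CPM in Itga8- Alcam+ BLCs, 38.1 CPM in Sca-1+ MSCs and 8.74 CPM in CD51+CD140a+ MSCs. Those most like Des were Gm10392 (0.49), Abhd15 (0.50), Adamts9 (0.55), Lmo7 (0.55) and Kcnh1 (0.57), and those most like Myh11 were Xk (0.69), Kcnh1 (0.73), Eml4 (0.74), Stard8 (0.76) and Itpk1 (0.77). Cnn2 was named here after its values were seen: its closest gene was Fhl2, at 0.25.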

How the data were processed

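RNA was sequenced from 12 libraries of 2000 sorted cells, 3 per population (SMART-Seq v4, Nextera XT, NextSeq 500). The authors deposited raw read counts per Ensembl gene for each library, not normalised, with reads mapped to mm10. The study's methods name TopHat and Bowtie2, whereas the submitters' processing notes list FastQC 0.11.7, Trimmomatic 0.38, HISAT2 2.1.0, SAMtools 1.9 and featureCounts 1.6.3. The annotation release, the strand setting and the treatment of reads with several positions are not given in the sources used here.

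Counts were tested with the quasi-likelihood test of edgeR 4.0.16 (R 4.3.3) after TMM scaling, in 1 fit of all 12 libraries with 6 pairwise comparisons, for the 18648 genes that reached 0.5 CPM in any library. Calls needed a Benjamini-Hochberg FDR under 0.1, adjusted over all genes tested, and a change of more than 2-fold. SEs were derived from the F statistic. With 3 libraries against 3, an exact permutation test cannot go below 0.1. TPM used exon lengths of GENCODE M21 (GRCm38), and 259 identifiers were not in it. Floors were 3 counts per library. PCR reads are not independent molecules, so intervals and floors cover counting error only. The scripts were tested on simulated data. Alternatives were DESeq2 1.42.0, other scalings and filters, separate fits, a replicate block and leaving out each library.

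The 10 genes and all lists were chosen with earlier results of these data known. Named were the 10 genes, for each list of contractile genes or regulators the 2 called genes per direction and comparison of largest change with at least 10 CPM, from which examples are given, the most abundant or undetected markers, and the 5 genes most like Acta2, Myh11 and Des. Cspg4, Kcnmb1, Myocd and, for likeness, Cnn2 were named after their values were seen where they fall outside this rule.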

Additional observations from a re-analysis of the deposited data

How the results depend on the processing

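Of the 33 calls among the 10 genes, 21 stood under every one of 8 alternatives and 6 leave-one-out fits per comparison, and of 27 differences not called 7 stood so. For Itga8+ MSCs against Itga8- Alcam+ BLCs, where 3 of the 10 were called, an edgeR fit of these 2 populations alone called 0 (5 at an unadjusted p under 0.05; DESeq2 called 4) and leave-one-out fits 1 to 3. For Itga8+ against Sca-1+ MSCs (8 called), an FDR under 0.05 left 4 and leave-one-out fits 4 to 8. For Itga8- Alcam+ BLCs against CD51+CD140a+ MSCs (4 called), leave-one-out fits gave 2 to 4. The cause of these changes was not tested. Among all genes, the 712 calls between the Alcam+ sorts became 1202 with DESeq2, 276 in the separate fit, 433 with the replicate block, 464 at an FDR under 0.05 and 433 without Itga8- replicate 3, and the 4055 calls of Itga8+ against Sca-1+ MSCs became 2386 to 2642 without 1 Sca-1+ library. With library totals alone, calls of Itga8- Alcam+ BLCs moved from 2706 higher and 2224 lower to 2170 and 2929 against Sca-1+ MSCs, and from 3808 and 2770 to 2936 and 4090 against CD51+CD140a+ MSCs.

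No sign change concerned a called value. Signs changed for Acta2 between Itga8- Alcam+ BLCs and Sca-1+ MSCs (-0.0086 with RLE size factors, -0.22 with library totals, -0.0084 with DESeq2, -0.0092 without a filter, -0.029 in the separate fit, -0.21 to 0.18 in leave-one-out fits), Myh11 between the Alcam+ sorts (1.01 with the replicate block, -1.13 to 1.25 in leave-one-out fits) and, in leave-one-out fits, Des between the Alcam+ sorts (-1.65 to 0.68), Tpm2 in Itga8+ MSCs against Sca-1+ MSCs (-0.28 to 0.63) or CD51+CD140a+ MSCs (-0.66 to 0.22), Cnn3 in Itga8- Alcam+ BLCs against Sca-1+ MSCs (-0.33 to 0.024) and in Sca-1+ against CD51+CD140a+ MSCs (-0.18 to 0.050), and Myh11 in Itga8- Alcam+ BLCs against Sca-1+ MSCs (-0.0091 to 9.63, the latter fitted without Sca-1+ replicate 2 against a group at 0 counts, so that its size has no meaning as a fold). Replicate numbers did not pair the libraries: same-numbered deviations correlated at -0.58 to 0.20, over 0.1 in 5 of 18 pairs, and 13 of 36 combinations were best with their own number. Some libraries of the Alcam+ sorts matched under other numbers. Itga8+ replicate 2 correlated with Itga8- replicate 3 at 0.59, and Itga8+ replicate 3 with Itga8- replicate 2 at 0.62. The block instead joined the same-numbered replicates 2 (-0.58) and 3 (-0.50), so it did not test that match. The labels do not say whether the matched libraries share an origin. With the replicate block 2, 8, 8, 6, 6 and 6 of the 10 genes were called, against 3, 8, 8, 6, 4 and 4 without it, taking Itga8+ MSCs against Itga8- Alcam+ BLCs, Sca-1+ and CD51+CD140a+ MSCs, then Itga8- Alcam+ BLCs against Sca-1+ and CD51+CD140a+ MSCs, then Sca-1+ against CD51+CD140a+ MSCs. The block ended the call of Tagln between the Alcam+ sorts and added those of Acta2 and Des in the fifth and of Acta2 and Myh11 in the last. Cnn1 and Myh11 were at 0 counts in some libraries, where levels under the floor were not detectable.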
